A study of Mus musculus with 2 samples.

Results

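The collagen gene family was examined in PDGFRα+ cells of mouse subcutaneous fat, as every gene whose symbol has the form Col, a number, the letter a and a number and that a probe set names alone. There were 44 such genes, of 27 collagen types, among 19938 genes on the arrays. They were grouped by the structure of the molecules they build, except that a cartilage class was set apart by tissue. There were 8 fibrillar, 11 network and basement membrane, 6 beaded, 6 FACIT, 4 transmembrane and 7 cartilage genes, and 2 genes set in none of these classes. The cartilage class holds Col2a1, Col11a1 and Col11a2, which are fibrillar by structure, and the type IX genes, which are FACIT by structure. The cells were sorted with an antibody against PDGFRα, a receptor for platelet-derived growth factor on fibroblasts and adipocyte precursors. Their source was the stromal vascular fraction, the non-adipocyte cells, of inguinal white fat of female mice at 6 weeks of age. One group carried floxed Sox9 and the other was Sox9 PreASKO, and both had received doxycycline at postnatal day 1. Each group was 1 array of RNA pooled from 3 mice, so no difference below has a replicate, an error or a test. The promoter that drives recombination in the PreASKO mice is not given in the sources used here.

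Collagens are the main structural proteins of connective tissue. Their chains, rich in glycine and proline, wind around each other into a rod, as copies of 1 chain or as a fixed mixture of chains from several genes. Fibrillar collagens form the load-bearing fibres, and FACIT collagens sit on the surface of those fibres. Type IV collagen forms the sheet of basement membranes, and type VI collagen forms beaded filaments around cells. In fat, fibroblast-like stromal cells make most of the fibrillar matrix, and each adipocyte lies in a basement membrane with a type VI collagen coat. SOX9 is the transcription factor known for switching on the collagens of cartilage.

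All values are on the log2 scale of the deposited table, and a difference is PreASKO minus floxed. The limit of 1.5-fold that the series' design text names is 0.585 on this scale. Background was read from 1027 olfactory receptor genes, assumed to be silent outside the nose. Their 95th percentile was 4.64 in floxed and 4.47 in PreASKO, and a gene was called above background in an array where it exceeded 4.64. The highest olfactory receptor gene was at 6.92 in floxed and 6.796 in PreASKO. Sox9 itself was at 5.25 in floxed and 4.97 in PreASKO. It is not known here whether its probes lie in the deleted part.

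The sorted cells carried the fibroblast markers of their label: 7 of 8 were measured and lay between 8.66 and 12.21 in floxed and between 8.48 and 12.21 in PreASKO. Their summed level was 13.8 in both arrays, and 6 were lower and 1 higher, with a median difference of -0.06. The gene of the sorting marker, Pdgfra, differed by -0.31 and Pdgfrb by -0.18. Macrophage markers were present as well, and all 9 of them were higher in PreASKO, with a median difference of 0.46 and a summed level of 12.62 in floxed and 13.10 in PreASKO. Endothelial markers had a summed level of 8.93 and 8.76 and mural cell markers one of 8.81 and 8.55. The endothelial sum rested mostly on Tek (8.17 and 7.98), and the next marker, Cdh5, was at 5.56 and 5.63. Pecam1 was above background in floxed only and Emcn in neither array. Of the mural markers Acta2 was the highest (7.21 and 6.77), and Myh11 was above background in PreASKO only. Summed levels were 7.13 and 7.27 for 6 epithelial markers, of which 5 lay below background in both arrays, and 7.96 and 7.88 for 2 of 4 Schwann cell markers. Of 7 chondrocyte markers 5 lay below background in both arrays, among them Acan (3.12 in both), the core protein of cartilage aggrecan, and their summed level was 6.77 and 6.799. No marker was at 0 on this scale. The part of these other cells in the collagen values was not tested, and fewer cells of a type cannot be told apart from less RNA per cell in sorted bulk RNA.

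The promoters of a few members are shown first, because the results below turn on whether chains of one molecule differed alike. Col6a1 and Col6a2 encode partner chains of type VI collagen and are neighbours among the protein-coding genes of chromosome 10, on the same strand, while the partner chain Col6a3 lies on chromosome 1. Col3a1 is shown because it was the only one of the 35 members searched that held a SOX-type motif. The stretches are the bases before the outermost start site, 5′ to 3′ on the gene's strand, from RefSeq on GRCm38.p6. They are chr10:76726045-76726294 on the minus strand for Col6a1, chr10:76623631-76623880 on the minus strand for Col6a2, chr1:90844002-90844221 on the minus strand for Col6a3 and chr1:45311288-45311537 on the plus strand for Col3a1. Capitals mark any match, on either strand, to TATAAA, called TATA box here, to CCAAT, to GGGCGG, called GC box here, or to AACAAT, called SOX-type motif here.

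Col6a1: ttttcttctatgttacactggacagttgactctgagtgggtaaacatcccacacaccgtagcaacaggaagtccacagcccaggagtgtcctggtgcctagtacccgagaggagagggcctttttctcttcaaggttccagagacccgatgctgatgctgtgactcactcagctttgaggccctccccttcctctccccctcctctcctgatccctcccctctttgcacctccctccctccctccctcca
Col6a2: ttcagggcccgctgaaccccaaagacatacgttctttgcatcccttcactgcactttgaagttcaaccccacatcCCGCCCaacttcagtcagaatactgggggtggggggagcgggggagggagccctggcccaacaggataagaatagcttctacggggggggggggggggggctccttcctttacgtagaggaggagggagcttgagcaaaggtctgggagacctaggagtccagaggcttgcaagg
Col6a3: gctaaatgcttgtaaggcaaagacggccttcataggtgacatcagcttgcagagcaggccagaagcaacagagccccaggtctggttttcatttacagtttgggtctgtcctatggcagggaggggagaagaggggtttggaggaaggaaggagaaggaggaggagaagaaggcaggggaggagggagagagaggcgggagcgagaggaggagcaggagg
Col3a1: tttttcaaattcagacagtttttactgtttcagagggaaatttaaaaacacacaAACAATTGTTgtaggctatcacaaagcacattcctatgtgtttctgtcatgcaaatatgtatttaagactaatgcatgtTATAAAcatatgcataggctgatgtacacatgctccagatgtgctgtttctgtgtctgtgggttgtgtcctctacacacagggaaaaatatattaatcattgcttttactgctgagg

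Col6a2 held 1 GC box in this stretch, and Col6a1 and Col6a3 held no match to these motifs. Col3a1 held 1 TATA box and a pair of overlapping SOX-type matches on opposite strands, which are 1 palindromic stretch. Col3a1 had a GC content of 35.2%, against 56% in Col6a1, 59.2% in Col6a2 and 56.4% in Col6a3. A window was found for 35 of the 44 genes, and the 250 bases before the start were searched in each and in all 27025 genes with a window; the printed stretch of Col6a3 is shorter because bases within the annotated gene were left out. No window was available for Col1a1, Col2a1, Col4a3, Col5a2, Col9a3, Col12a1, Col14a1, Col22a1 and Col26a1, so these were not searched for any motif. A SOX-type match was present in 1 of the 35 and in 9.62% of all genes. A GC box was present in 21 of the 35 and in 33% of all genes. A CCAAT box was present in 12 (34.5% of all genes) and a TATA box in 5 (13% of all genes). A match describes letters in this window and shows no binding.

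Most of the family lay above the background mark of 4.64. Of the 44 genes, 35 lay above background in both arrays, against 55.2% of all genes, and 2 more lay above it in 1 array; 59.2% of all genes were above it in at least 1 array. At a stricter mark, the higher 99th percentile of the olfactory receptor genes (5.43), 19 members were above it in both arrays. Of all 19938 genes 8442 were, a similar share, so the family did not stand out at that mark. The 7 members below 4.64 in both arrays were Col24a1, Col4a6, Col8a2, Col6a4, Col19a1, Col9a1 and Col10a1. There were 14 members above 6.92, the highest olfactory receptor gene of either array, in both arrays, a level reached by 19.6% of all genes. They were 6 fibrillar genes, Col4a1, Col4a2, Col15a1, the 3 major type VI genes, Col12a1 and Col14a1. Col18a1 also exceeded every such gene of its own array, which makes 15 in each array. No cartilage and no transmembrane collagen was among them.

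**Figure D1:**
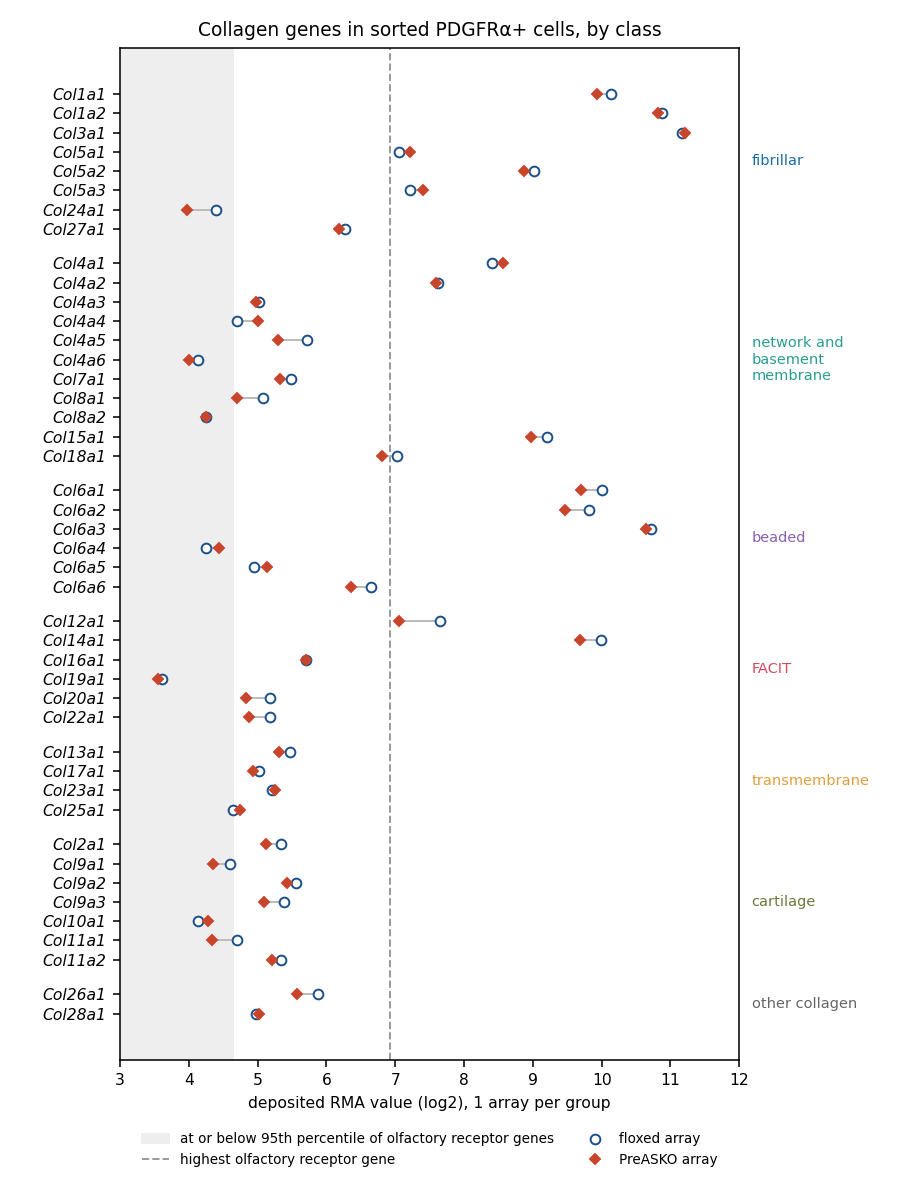
Deposited log2 value (horizontal axis) of each of the 44 collagen genes in floxed (open circles) and PreASKO (diamonds), ordered by class, with 1 array per group and so no error bars. The grey band ends at the background mark (4.64) and the dashed line marks the highest such gene (6.92). The 14 members to the right of the line in both arrays include none of the cartilage or transmembrane class.

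Collagen genes leaned to lower values in PreASKO, by small amounts. Of the 44 genes, 31 were lower, 11 higher and 2 equal in both arrays, whereas 48% of all genes were lower. The median difference was -0.14 over the family and 0 over all genes. A single member passed the 1.5-fold limit, Col12a1, which was lower; 1.98% of all genes were lower and 1.66% higher by that much. At a limit of 1.2-fold, 13 members were lower and 1 was higher, against 14% and 13.7% of all genes.

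The lean did not rest on the dim members alone. Among the 35 genes above background in both arrays, 26 were lower, 8 higher and 1 equal, with a median of -0.15. Over all 11015 genes at that level 44.8% were lower and the median was 0.02. At 1.2-fold 11 of the 35 were lower and 1 higher, against 9.26% and 13.3% of the genes at that level. Among the 14 members above 6.92 in both arrays, 10 were lower and the median was -0.11. Of all 3910 genes at that level 44.1% were lower and the median was 0.02. Without Col12a1 the family median was -0.14, but a median can hardly move when 1 gene of 44 is left out. The family mean was -0.1255 with Col12a1 and -0.1145 without it. With values below background raised to it the family median was -0.08. With 1 array a group, these shifts cannot be told apart from a difference between the hybridisations or the pools.

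**Figure D2:**
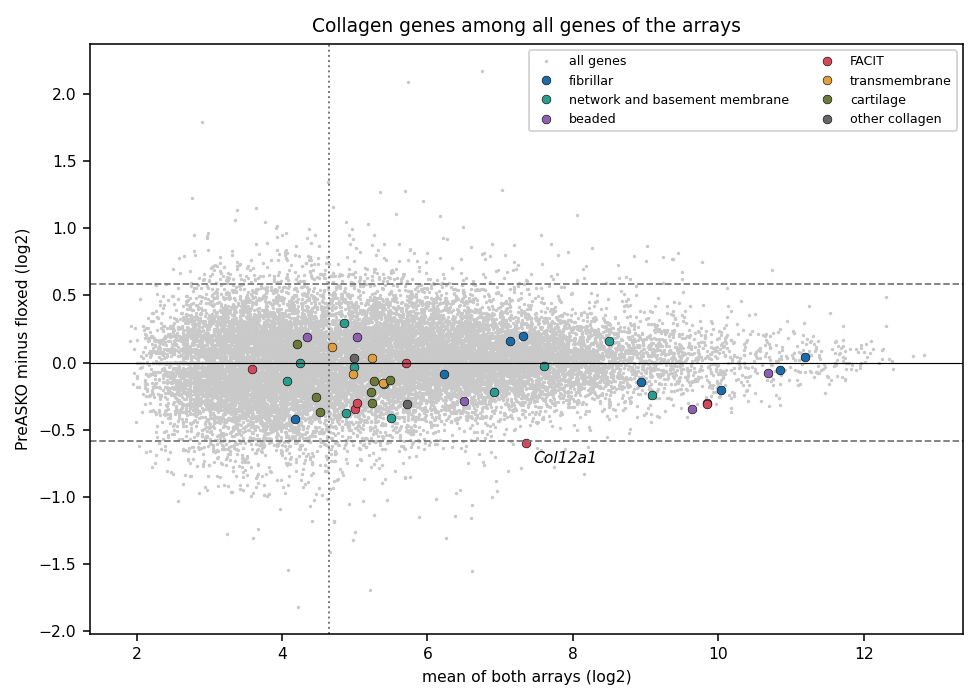
Difference PreASKO minus floxed (vertical axis, log2) against the mean of both arrays (horizontal axis, log2) for 19938 genes (grey) and the 44 collagen genes (coloured by class). Dashed lines mark 1.5-fold and the dotted line the background mark of 4.64. Col12a1 is the member beyond the lower dashed line. Of the 44 members 31 lie below 0, and of the 14 above 6.92 in both arrays 10 do.

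The FACIT class, which leaves out the type IX genes, had the most negative median of the 7 groups, -0.30 over 6 genes. Of these 5 were lower, 1 was equal and none was higher. Col12a1 encodes the chain of type XII collagen, a fibril-surface collagen of tendon, fascia and other tissue under mechanical load. It was at 7.66 in floxed and 7.06 in PreASKO, a difference of -0.60 or 1.52-fold. Both values lay above every olfactory receptor gene, so that the difference was not one against background. Col14a1, which encodes the related fibril-surface collagen XIV, was at 10.0 in floxed and 9.69 in PreASKO, a difference of -0.31.

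The other FACIT genes were closer to background. Col20a1 was at 5.18 in floxed and 4.83 in PreASKO (-0.35), and Col22a1, a collagen of tissue junctions such as that of muscle and tendon, at 5.18 and 4.88 (-0.30). In floxed 19 olfactory receptor genes exceeded each of these, and in PreASKO 30 exceeded Col20a1 and 27 exceeded Col22a1. Col16a1 held the same value, 5.70, in both arrays, as did 3.8% of all genes. Col19a1 was below background, at 3.61 and 3.56. The olfactory receptor genes had a median difference of -0.08, and 24.9% of them were lower and 11.2% higher by 1.2-fold, so differences of this size were common among silent genes.

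**Figure D3:**
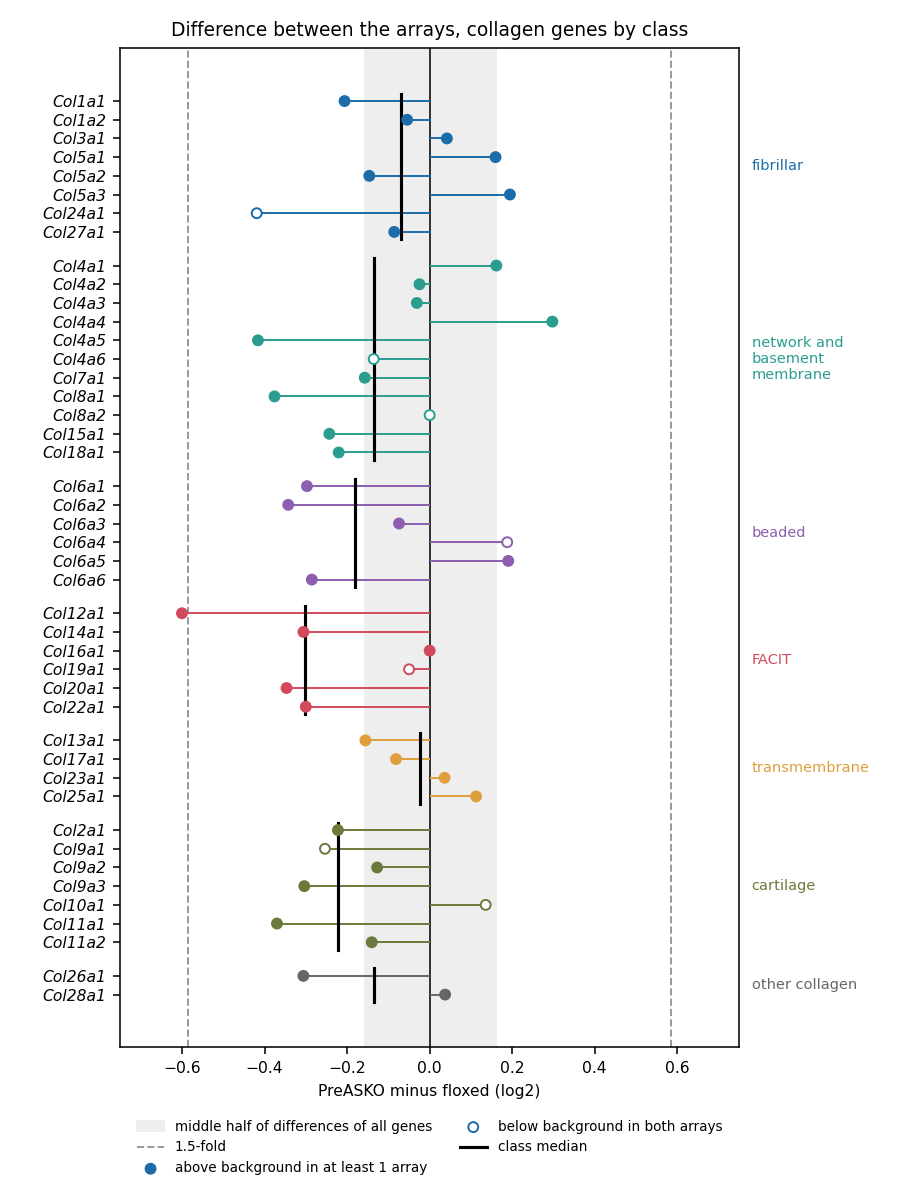
Difference PreASKO minus floxed (horizontal axis, log2) for each collagen gene by class; filled points lie above background in at least 1 array, open points below it in both, and black bars are class medians. Dashed lines mark 1.5-fold and the grey band holds the middle 50% of all genes, from -0.16 to 0.16. The FACIT median stands at -0.30 and the transmembrane median at -0.02.

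The fibrillar class, which makes the bulk of the stromal fibres, was nearly level. Its median was -0.07, with 5 of 8 genes lower and 3 higher, and -0.03 with values below background raised to it. It leaves out Col2a1, Col11a1 and Col11a2, set in the cartilage class, which were each lower and are given below. Col1a1, which supplies most chains of type I collagen, was at 10.14 in floxed and 9.93 in PreASKO, a difference of -0.21. Its partner Col1a2 was at 10.88 and 10.82, a difference of -0.05. The type I pair was thus lower for both chains, by unequal amounts. Col3a1, the chain of type III collagen that mixes into type I fibres, was at 11.17 and 11.21, a difference of 0.04.

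Type V collagen sits inside type I fibres and sets their diameter. Its chains differed in direction: Col5a1 was at 7.05 in floxed and 7.21 in PreASKO (0.16) and Col5a3 at 7.21 and 7.41 (0.19), while Col5a2 was at 9.01 and 8.87 (-0.15). Col27a1, a minor fibrillar collagen also found in cartilage, was at 6.27 and 6.19 (-0.09). Col24a1 lay below background in both arrays, at 4.39 and 3.97.

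The beaded class divided by gene. The 3 major chains of type VI collagen were all lower in PreASKO. Col6a1 was at 10.0 in floxed and 9.70 in PreASKO, a difference of -0.30. Col6a2 was at 9.81 and 9.47, a difference of -0.34. Col6a3 was at 10.72 and 10.65, a difference of -0.07. Col6a1 and Col6a2 thus differed by similar amounts (1.23-fold and 1.27-fold) and Col6a3, on another chromosome, by less (1.05-fold). The starts of Col6a1 and Col6a2 lie 102414 bases apart, and a link between position and difference was not tested. A molecule of type VI collagen takes a chain from each of the 3 genes.

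Another 3 type VI genes, which are thought able to stand in for Col6a3, lie side by side on chromosome 9. Col6a6 was lower, at 6.65 in floxed and 6.36 in PreASKO (-0.29), and a second probe set of the gene gave -0.28. Col6a5 was higher, at 4.94 and 5.13 (0.19), and its dimmer probe set gave 4.66 and 5.24 (0.59), so that the probe sets fell on different sides of the 1.5-fold limit. Col6a4 lay below background, at 4.25 and 4.44. Of the neighbouring pairs in this cluster, Col6a6 and Col6a5 had opposite signs, and Col6a5 and Col6a4 had the same sign. The class median was -0.18, with 4 of 6 lower, and -0.29 without Col6a4.

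Network and basement membrane genes had a median of -0.14, with 8 of 11 lower, 2 higher and 1 equal, and of -0.03 with values below background raised to it. Col4a1 and Col4a2 encode the common type IV chains and lie head to head on chromosome 8, with start sites 21 bases apart in RefSeq. Col4a1 was at 8.41 in floxed and 8.57 in PreASKO, a difference of 0.16. Col4a2 was at 7.62 and 7.60, a difference of -0.02. This pair, with its shared start region, thus held a higher and a nearly level gene.

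The tissue-restricted type IV chains were dim. Col4a5 was lower, at 5.71 in floxed and 5.30 in PreASKO (-0.42, 1.33-fold), and Col4a4 was higher, at 4.702 and 4.999 (0.30). Col4a3, its partner chain and neighbour, was at 5.01 and 4.98 (-0.03), and Col4a6 lay below background at 4.14 and 4.001. The floxed value of Col4a4 stood just above the background mark, so its difference is uncertain. Col4a5 was exceeded by 6 olfactory receptor genes in floxed and 13 in PreASKO.

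The collagens that link basement membranes to the stroma beneath were lower. Col15a1 was at 9.21 in floxed and 8.97 in PreASKO (-0.24), and Col18a1, whose end fragment is endostatin, at 7.03 and 6.81 (-0.22). Col7a1, the chain of the anchoring fibrils of skin, was at 5.49 and 5.33 (-0.16). Endothelial and mural cells also make basement membrane collagens. Of 7 markers each, 4 were lower and 3 higher, with median differences of -0.09 and -0.33, and the mural list ran from -0.62 (Kcnj8) to 0.46 (Notch3). The part of those cells in these values was not tested. Of the short network collagens, Col8a1 was at 5.07 and 4.696 (-0.38), near background, and Col8a2 held 4.25 in both arrays, below it.

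The collagens of cartilage, among them the best known targets of SOX9, were dim and mostly lower. Of 7 genes 6 were lower and 1 higher, with a median of -0.22, and none reached 1.5-fold. The median was -0.13 with values below background raised to it. Col2a1, the main fibrillar collagen of cartilage, was at 5.34 in floxed and 5.11 in PreASKO (-0.22). In floxed 11 olfactory receptor genes exceeded it, and in PreASKO 16 did. The class ran from 4.14 to 5.55 in floxed and from 4.27 to 5.42 in PreASKO, levels that some olfactory receptor genes exceeded. Of its members 2 lay below background in both arrays.

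The type IX chains, which coat type II fibres, were lower for each gene. Col9a3 was at 5.39 and 5.08 (-0.30), Col9a2 at 5.55 and 5.42 (-0.13), and Col9a1 lay below background at 4.60 and 4.34. Of the type XI chains, which lie within type II fibres, Col11a2 was at 5.34 and 5.20 (-0.14). Col11a1 was above background in floxed only, at 4.703 and 4.33, which gives at least 1.04-fold lower. Col10a1, the collagen of hypertrophic chondrocytes, lay below background and was the member with the opposite sign (4.14 and 4.27). Of the chondrocyte markers, Comp, Matn1, Matn3, Hapln1 and Acan were below background in both arrays. The other 2 were higher in PreASKO, Snorc (4.75 and 4.88) above background in both arrays and Cnmd (4.61 and 4.81) in PreASKO only.

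The transmembrane collagens, which are anchored in the cell surface, were dim and nearly level. Their median was -0.02, with 2 of 4 lower. They ran from 4.63 to 5.47 in floxed and from 4.75 to 5.32 in PreASKO, levels that some olfactory receptor genes exceeded. Col13a1, found at cell adhesions and neuromuscular junctions, was at 5.47 and 5.32 (-0.16), and Col17a1, a collagen of epithelial hemidesmosomes, at 5.01 and 4.93 (-0.08). Col23a1 was at 5.21 and 5.25 (0.04), and Col25a1, known from neurons and motor innervation, was above background in PreASKO only (4.63 and 4.75). Of the genes set in no class, Col26a1 was at 5.87 and 5.57 (-0.31), and Col28a1, a collagen of peripheral nerve, at 4.97 and 5.01 (0.04).

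The enzymes, carriers and receptors of collagen were compared next, as the remaining genes of the pathway. Of 47 listed genes 44 were measured, of which 23 were lower, 20 higher and 1 equal, with a median of -0.01. At 1.5-fold 1 was lower and none higher, against 1.98% and 1.66% of all genes. At 1.2-fold 5 were lower and 5 higher, against 14% and 13.7%. By any amount 48% of all genes were lower.

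Genes of chain folding and hydroxylation had a median of 0.03 over 17 measured members, with 9 higher and 8 lower. P4ha3, a catalytic subunit of prolyl 4-hydroxylase, the enzyme that stabilises the helix, was higher by 0.38 (5.51 and 5.89). P3h4, a partner of lysyl hydroxylation, was higher by 0.27 and the prolyl isomerase gene Ppib by 0.22. Of the brighter subunit genes of prolyl 4-hydroxylase, P4ha1 (-0.19) and P4hb (-0.17) were lower and P4ha2 was higher (8.04 and 8.20, 0.16). Serpinh1 (-0.19), the collagen chaperone HSP47, was lower, at 10.02 and 9.83. Of 7 genes of procollagen export, with a median of 0.05, Sar1b (0.35), Sec13 (0.21) and Trappc2 (0.21) were higher and Sec24d (-0.11) and Sec23a (-0.01) lower. They encode parts of the coat and tethers of the vesicles that leave the endoplasmic reticulum.

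Genes of propeptide cleavage and of cross-linking had lower medians, -0.11 over 7 and -0.15 over 4 measured members. Tll1, a tolloid protease that trims procollagen ends, was the gene past 1.5-fold, at 5.03 in floxed and 4.43 in PreASKO. The PreASKO value lay below background, so that it was at least 1.31-fold lower. Bmp1, the main protease of this group, was at 8.83 and 8.80 (-0.03), and its enhancer Pcolce at 11.37 and 11.26 (-0.11). Adamts3, which cuts the other end of procollagen, differed by -0.23, Adamts14 by 0.04 and Pcolce2 by 0.03. Lox, the lysyl oxidase that starts cross-links, was at 8.93 and 8.64 (-0.29). Of its relatives Loxl4 differed by -0.27, Loxl3 by -0.03 and Loxl1 by 0.08.

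Collagen receptors had a median of 0 over 9 genes. Lair1, an inhibitory collagen receptor of leukocytes, was at 4.71 in floxed and 5.29 in PreASKO (0.58, 1.49-fold). Macrophage markers had a median difference of 0.46, and their part in the Lair1 value was not tested. Ddr1 (4.775 and 5.14, 0.37) and Itga2 (0.24) were also higher, and both encode collagen receptors common in epithelia. The floxed value of Ddr1 was likewise near the background mark. Itga1 (5.12 and 4.84, -0.27), Ddr2 (-0.11) and Itga11 (-0.07) were lower. Ddr2 and Itga11 are the receptors best known from fibroblasts. Ddr2 was at 8.68 and 8.56 and Itga11 at 7.38 and 7.31.

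**Figure D4:**
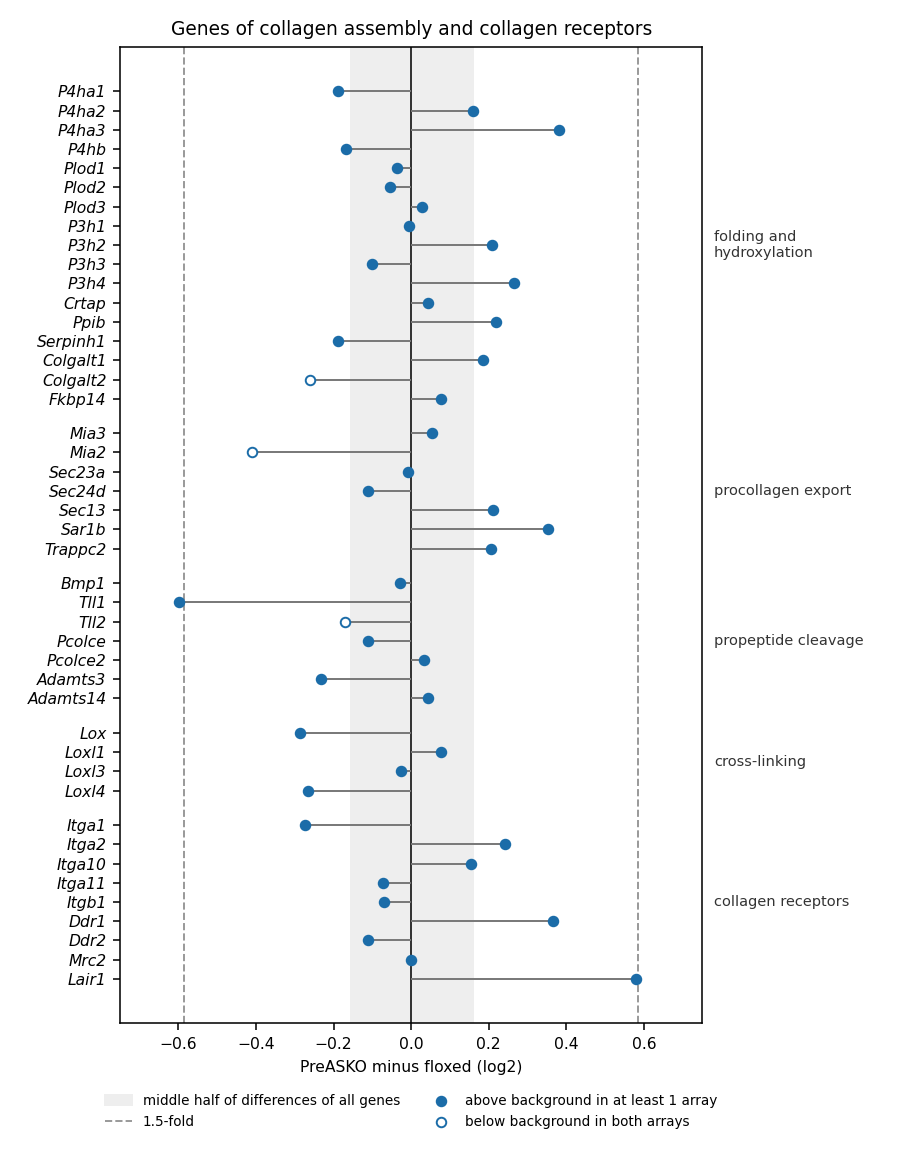
Difference PreASKO minus floxed (horizontal axis, log2) for 44 genes of collagen assembly and collagen receptors, by list; filled points lie above background in at least 1 array and open points below it in both. Dashed lines mark 1.5-fold and the grey band holds the middle 50% of all genes. Tll1 lies beyond the lower line and Lair1 just inside the upper one, each with 1 value near the background mark.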

How the data were processed

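RNA was measured on 1 array per group, floxed and PreASKO. The deposited values are log2 probe set values that the authors made with RMA, per the submitters' processing notes; its version is not given in the sources used here. The log base was inferred from the range of the values, 1.23 to 13.8. RMA makes the distributions of the arrays alike and understates differences of dim genes. Depth does not apply, and the number of arrays limits the precision.

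Of 35556 probe sets, 21789 name 1 gene in the platform annotation supplied with the series, 1621 name several and 12146 are unnamed here. Where a gene had several, the brightest by mean was used. The 44 collagen genes had 46 probe sets, and all 44 gene identifiers had the same symbol in RefSeq. Probe sets differ in sensitivity, so levels of different genes, the order of markers within a list and summed levels compare only roughly. Where 1 array was below background, the printed fold is the smallest possible one, taken against 4.64, the higher 95th percentile of the olfactory receptor genes.

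No test was made. The members, classes, lists and rule were chosen with earlier results of these data known. Every collagen gene was named. Of the pathway lists, those with the largest differences above background were named, at most 3 in each direction, and any past 1.5-fold. Bmp1, P4ha2 and single chondrocyte markers were added after their values were seen. Steps were tested on simulated data with planted 2-fold differences and a smaller spread between arrays than in the deposited values. That checked the steps and not whether differences of the sizes reported here can be found. Python 3.11.15, pandas 2.3.3, numpy 2.4.6, statsmodels 0.14.6 and matplotlib 3.10.9 were used.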

Additional observations from a re-analysis of the deposited data

How the results depend on the processing

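The alternatives were averaging the probe sets of a gene, values below background raised to it, centring, loess correction (span 0.3), quantile normalization, other fold limits and other background marks. Col12a1 was at -0.63 after loess correction and at -0.61 after quantile normalization, both past 1.5-fold. The other 3 of the first 5 settings could not move it, since it has 1 probe set, lies above background and the median of all genes was 0. The other collagen genes above background in at least 1 array stayed inside the limit under these 5 settings. Col3a1 (-0.03) and Col4a3 (0.0003) changed sign under quantile normalization. The family median ran from -0.15 to -0.08, the latter with values raised to background, where 27 genes were lower, 9 higher and 8 equal. At 2-fold 0 collagen genes were lower, and at 1.2-fold 13 were lower and 1 higher. Raising values moved the network and basement membrane median to -0.031, the cartilage median to -0.13 and the fibrillar median to -0.027, and leaving out genes below background moved the beaded median to -0.29. With the 99th percentile of olfactory receptor genes as the mark, 19 collagen genes were above it in both arrays and 23 in at least 1. Of the assembly and receptor genes, 1 was 1.5-fold higher and 0 lower under quantile normalization, 0 were lower with values raised to background, and 5 were higher and 5 lower at 1.2-fold. The cause of these shifts was not tested beyond how each setting is built. No replicate could be left out. No paired analysis was possible because a group is a single array.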

Other observations

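Collagen-like stretches also occur in secreted and membrane proteins that are not called collagens. A list of 32 such genes was drawn up after the values of C1qa, C1qb and Adipoq had been seen, and 31 were measured. Of these, 22 were lower in PreASKO, 8 higher and 1 equal, with a median difference of -0.14. At 1.5-fold 1 was higher and 1, Sftpd, was lower, the latter below background in both arrays. Of all genes 48% were lower by any amount, and at 1.5-fold 1.66% were higher and 1.98% lower.

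The higher ones included genes of macrophage proteins: the complement genes C1qa (8.63 and 9.39, a difference of 0.75), C1qc (9.85 and 10.40, 0.55) and C1qb (8.61 and 9.12, 0.51), the scavenger receptor gene Msr1 (6.58 and 7.09, 0.51) and the ficolin gene Fcna (0.35). The macrophage marker list, which shares C1qa and C1qb with this one, was higher by a median of 0.46. The scavenger receptor gene Scara3 differed by 0.17. Fcnb was above background in PreASKO only and at least 1.35-fold higher.

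The lower ones above background in both arrays included Colec12, a scavenger collectin (8.86 and 8.51, -0.35), Colec11 (-0.40), Emid1 (-0.32), the scavenger receptor gene Scara5 (7.67 and 7.43, -0.25) and Cthrc1, a secreted protein of activated fibroblasts (7.93 and 7.69, -0.25). Of the C1q and TNF related genes, C1qtnf1 (-0.24), C1qtnf2 (-0.15), C1qtnf3 (-0.24), C1qtnf6 (-0.12), C1qtnf7 (-0.24) and C1qtnf12 (-0.02) were lower. Adipoq, the adiponectin gene, lay below background in both arrays (4.55 and 4.40).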
